A study of Apis mellifera with 6 samples.

Results

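Serotonin and dopamine are amines that insect neurons release as transmitters and modulators, and both act on receptors that sit in the cell membrane and signal through G proteins. Receptors of each amine fall into types that differ in the second messenger they use inside the cell, some raising cyclic AMP (cAMP), some lowering it and some releasing calcium. In insects the antenna carries olfactory, gustatory and mechanosensory neurons, and amines are known to modulate sensory responses there. The genes described here are those listed in the antennal RNA-seq table of worker bees under an ID that starts with 5-HT, is Dop followed by a digit, or is DopEcR. This naming rule found 6 of the 9362 listed genes, 4 serotonin receptor genes (*5-HT1*, *5-HT2alpha*, *5-HT2beta* and *5-ht7*) and 2 dopamine receptor genes (*Dop1* and *Dop3*). The same 6 were the only genes of the RefSeq annotation whose symbol met the rule. No listed ID was DopEcR. *DopR2*, which has the synonym *Dop2*, is also a dopamine receptor gene but did not meet the rule, and its values are given beside those of the 6.

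RNA was taken from antennae of adult worker bees (*Apis mellifera*), and the extracts of 5 bees were pooled for each library. There were 3 libraries of wt worker bees and 3 of dsx stop/stop worker bees, in which stop mutations had been made in both copies of *doublesex* (*dsx*) by injecting eggs with Cas9 protein and guide RNAs. The mutations arose independently in each bee, so the stop alleles can differ between the bees of a pool. The level used is the base mean of the authors' table. It was read here, from the name and the values of the column, as the count of a gene in each library divided by a size factor of the library and averaged over the 6 libraries. The methods also name a transcripts-per-kilobase-million normalization, and the table does not say how the column was made. It joins both genotypes, so no difference between wt and dsx stop/stop worker bees is given here, no spread between the pools was available, and the base mean of *dsx* itself (1278 normalized counts) is no check of the genotype labels.

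The 6 receptor genes had base means from 16.2 to 138 normalized counts, with a median of 45.0. The median of the 7610 listed protein-coding genes was 401, so each of the 6 lay below it. The highest base mean was that of *5-HT2alpha* and the lowest that of *Dop3*, and they differed 8.51-fold. Base means of different genes are not on a per-length scale, because, if they are means of counts, a longer transcript gives more reads. Transcript lengths were not used here, so the order of the genes is read as one of counts and not of RNA molecules. On this reading, for equal numbers of molecules the *5-HT2alpha* transcripts would have to be 8.51 times as long as those of *Dop3*.

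The errors given are those of counting reads alone. They rest on 6 size factors inferred from the smallest base means of the table, which several genes share, on the assumption that each such value stands for 1 read in 1 library. Every interval given here, and every statement that genes differed or could not be told apart by counting error, depends on this assumption, which no source states. With these size factors the base means imply more reads than the methods allow, and the cause was not tested. The size factors ran from 0.202 to 2.36, and the library with the lowest one accounted for 52.2% of the counting variance of a base mean. The highest was 11.7 times the lowest, a wider range than that of the approximate read numbers in the methods. The cause of this difference was not tested either. Intervals are 95% intervals of this kind and leave the spread between pools unknown.

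The receptors that act through calcium gave the highest and the second lowest base mean. *5-HT2alpha* (RefSeq gene 411323) lies on chromosome LG9 from 8766576 to 8797600 and had a base mean of 138 normalized counts (interval 126 to 149). Of the listed protein-coding genes, 27.5% had a lower base mean. *5-HT2beta* (gene 552518), the other receptor of this type, lies on LG10 from 5304754 to 5424158 and had a base mean of 36.2 (30.1 to 42.3), above 15.2% of the listed protein-coding genes. The *5-HT2alpha* base mean was 3.80 times that of *5-HT2beta* (3.15 to 4.59). This ratio was the widest between the serotonin receptor genes, and the interval lay far from 1. Together both genes made up 50.1% of the summed base mean of the 6 receptor genes.

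The receptors that raise cAMP were close to each other. *Dop1* (gene 406111), a dopamine receptor that activates adenylate cyclase, lies on LG15 from 7337783 to 7381156 and had a base mean of 45.6 normalized counts (38.8 to 52.4). *5-ht7* (gene 726702), the serotonin receptor of this type, lies on LG6 from 633583 to 1032488 and had a base mean of 44.4 (37.7 to 51.1). Their difference of 1.20 normalized counts had an interval from -8.35 to 10.8, so these genes could not be told apart by counting error. They stood above 16.9% and 16.6% of the listed protein-coding genes and made up 25.9% of the summed base mean.

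The receptors that lower cAMP were far apart. *5-HT1* (gene 410435), the serotonin receptor of this type, lies on LG13 from 4679854 to 4786005 and had a base mean of 66.9 normalized counts (58.7 to 75.2), above 19.7% of the listed protein-coding genes. *Dop3* (gene 408995), the dopamine receptor that lowers cAMP, lies on LG9 from 10181294 to 10324139 and had a base mean of 16.2 (12.1 to 20.2), above 10.4% of these genes. The *5-HT1* base mean was 4.14 times that of *Dop3* (3.13 to 5.47). Both genes made up 23.9% of the summed base mean, against 25.9% for the receptors that raise cAMP. Their sums were 83.1 and 90.0 normalized counts, with standard deviations from counting of 4.68 and 4.87. *DopR2*, described below, also encodes a receptor that raises cAMP and is left out of these shares. *Dop3* was also lower than *Dop1*, whose base mean was 2.82 times as high (2.11 to 3.77).

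**Figure D1:**
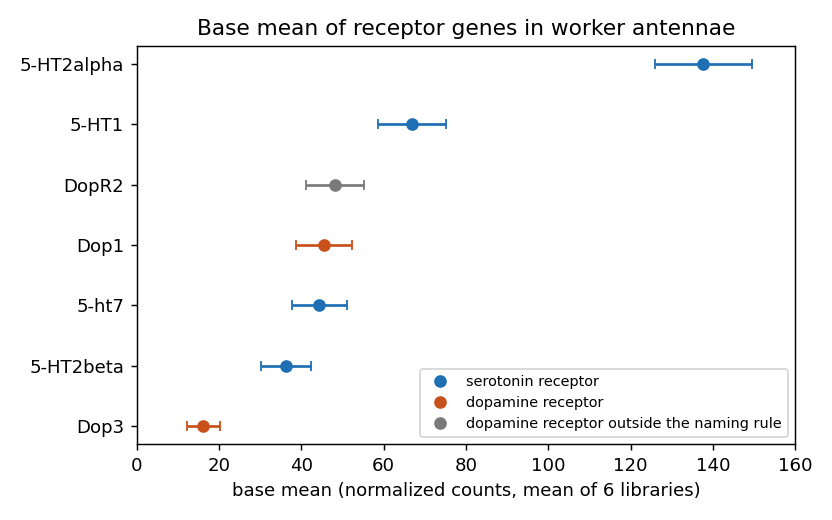
Base means of the receptor genes in normalized counts (x axis), 1 point per gene, with bars for the 95% interval of counting error only. *5-HT2alpha* stands apart at 138, *Dop3* is lowest at 16.2, and *Dop1*, *5-ht7* and *DopR2* have points between 44.4 and 48.2. The bars of *Dop1*, *5-ht7* and *DopR2* overlap each other and that of *5-HT2beta* (30.1 to 42.3).

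From high to low, the base means followed the order *5-HT2alpha*, *5-HT1*, *Dop1*, *5-ht7*, *5-HT2beta* and *Dop3*. Of the 5 neighbouring pairs in this order, 3 differed beyond counting error. The base mean of *5-HT2alpha* was 2.06 times that of *5-HT1* (1.77 to 2.39), that of *5-HT1* was 1.47 times that of *Dop1* (1.21 to 1.78), and that of *5-HT2beta* was 2.24 times that of *Dop3* (1.66 to 3.02). The middle of the order was not resolved. *5-ht7* and *5-HT2beta* differed by 8.22 normalized counts, with an interval from -0.817 to 17.3 that includes 0. *Dop1* and *5-HT2beta*, which are not neighbours, differed by 9.43 (0.320 to 18.5), at the edge of what counting error allows. Over all 15 pairs of the 6 genes, 13 differed beyond counting error and 11 did so when this error was doubled. The doubling is arbitrary and does not stand for the spread between pools, which is unknown, or for differences in transcript length.

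*DopR2* (gene 406070), which encodes a further dopamine receptor that raises cAMP, lies on LG15 from 6339308 to 6402471 and had a base mean of 48.2 normalized counts (41.2 to 55.1). It could not be told apart from *Dop1*, from which it differed by 2.53 (-7.21 to 12.3), nor from *5-ht7*, from which it differed by 3.74 (-5.95 to 13.4). The genes for receptors that raise cAMP, 2 for dopamine and 1 for serotonin, lay within 44.4 to 48.2. The base mean of *DopR2* was 2.98 times that of *Dop3* (2.23 to 3.98). Among the dopamine receptor genes, the gene of the receptor that lowers cAMP had a lower base mean than both genes of the receptors that raise it.

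The 4 serotonin receptor genes had a median base mean of 55.7 normalized counts (range 36.2 to 138) and the 2 dopamine receptor genes one of 30.9 (16.2 to 45.6). The ranges overlapped, and the ratio of the medians was 1.80. With *DopR2* counted among the dopamine receptor genes, their median was 45.6 and the ratio 1.22. The 4 serotonin receptor genes gave 82.2% of the summed base mean of the 6, and *5-HT2alpha* was the largest part of it. The dopamine receptor genes gave 17.8%, or 27.8% of the sum when *DopR2* was counted too.

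**Figure D2:**
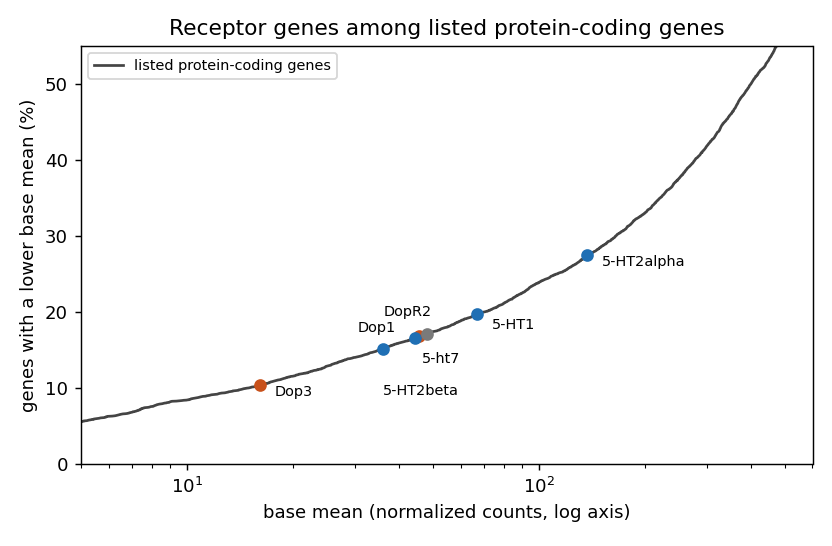
Share of the 7610 listed protein-coding genes with a lower base mean (y axis, percent) against the base mean in normalized counts (x axis, log scale), with the receptor genes as points on the curve, of which only the part around these genes is drawn. The receptor genes lie between 10.4% for *Dop3* and 27.5% for *5-HT2alpha*.

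Of the 6 receptor genes, 5 had a base mean from 10 to 100, a class that holds 15.4% of the listed protein-coding genes, and *5-HT2alpha* was in the class from 100 to 1000 with 51.4% of them. None was under 10, where 643 of the listed protein-coding genes lay. Counting error alone was 4.38% of the base mean for *5-HT2alpha*, between 6.28% and 8.54% for the next 4 genes and 12.8% for *Dop3*. In whole antennae, a low base mean can come from few cells with much RNA of a receptor or from many cells with little, and these cannot be told apart here.

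The receptor genes also shared a long genomic span, which the naming rule did not use. From the first to the last annotated base, introns included, the spans ran from 31025 bp for *5-HT2alpha* to 398906 bp for *5-ht7*. Their median was 113 kb, against 4.10 kb for the listed protein-coding genes. The *5-HT2alpha* span was longer than that of 89.0% of these genes, and the *5-ht7* span was longer than that of 99.6%. Such a span is not a transcript length. The 839 listed protein-coding genes with a span of at least 31025 bp had a median base mean of 555 normalized counts. This limit is the *5-HT2alpha* span and was chosen after seeing the data. Whether span is related to base mean was not tested. Among those 839 genes, 26.6% had a lower base mean than *5-HT2alpha* and 5.36% a lower one than *Dop3*. RefSeq gives each receptor gene several transcript models, from 3 for *5-HT2beta* to 6 for *5-HT1*, *5-HT2alpha* and *5-ht7*, and the base mean joins them in 1 value.

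**Figure D3:**
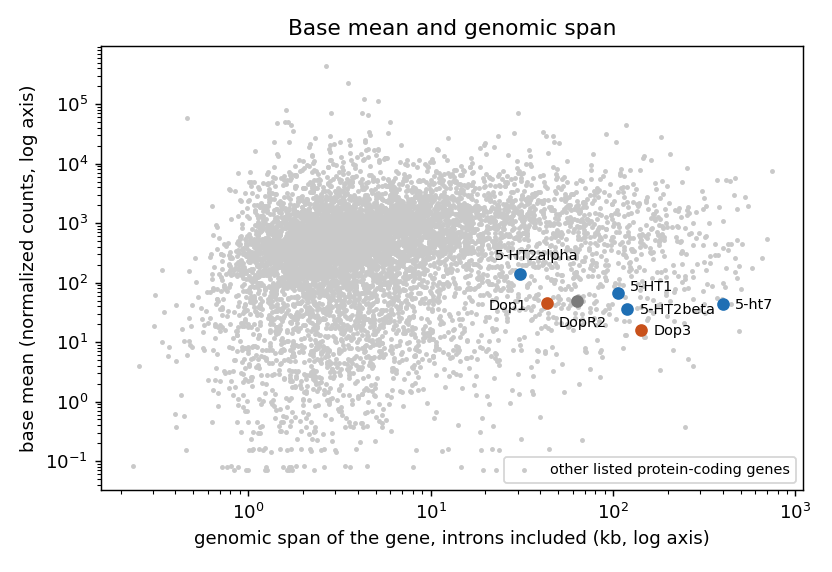
Base mean in normalized counts (y axis, log scale) against the genomic span of the gene in kb (x axis, log scale) for the listed protein-coding genes in grey and the receptor genes in colour (blue, serotonin; orange, dopamine; dark grey, *DopR2*). The receptor genes lie among the long genes, from 31.0 to 399 kb, and in the lower part of the base means at these spans.

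The 6 genes are spread over 5 chromosomes. *5-HT2alpha* and *Dop3* share LG9 with 1.38 Mb between them, and *Dop1* shares LG15 with *DopR2*, 0.935 Mb away. No annotated gene overlaps *5-HT1*, *5-HT2alpha* or *5-ht7*. Within the span of *5-HT2beta* lies LOC409699, a protein-coding gene with a base mean of 1966 normalized counts, which is 54.3 times that of the receptor. A second gene there, LOC100577331, had a base mean of 1.03. The long noncoding RNA LOC102654507 overlaps *Dop3*, and its base mean of 23.3 was higher than that of *Dop3*. *Dop1* holds the long noncoding RNAs LOC113219284 and LOC102654376, with base means of 11.7 and 1.24. The protein-coding gene LOC107965601 lies within *DopR2*, and its base mean of 41.7 was 0.866 times that of *DopR2*. The positions of exons and the strand were not used here, so whether reads could be shared at these loci was not tested.

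Genes that make, carry or relay these amines were looked up by symbol or synonym. Of the amine pathway lists (synthesis, transport, octopamine and tyramine receptors, other metabotropic receptors, signalling partners), 8 genes were found in the annotation and 3 of these were listed. The other 5, among them the octopamine receptor gene *Oa1* and the tyramine receptor gene *TyrR*, were not analysed here. Most of the symbols searched matched nothing in the annotation, with 1 gene found for 12 symbols of synthesis and 1 for 3 of transport. These counts therefore describe the lookup and not expression in the antenna. *Ac3*, which encodes an adenylate cyclase, the enzyme that makes cAMP, had a base mean of 798 normalized counts, 5.80 times that of *5-HT2alpha* and 49.3 times that of *Dop3*. *Dat*, matched to the transporter list by its symbol and with the synonym NT-2, had a base mean of 811. *Glurb*, a glutamate receptor gene, had a base mean of 80.7 and lay within the range of the 6 receptor genes. *Ac3* and *Dat* stood above 69.6% and 70.0% of the listed protein-coding genes, far above each of the 6.

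Markers of the tissue and of other cell types were covered only in part. Of the 5 fixed fat body markers 4 were listed, the hexamerin genes, with base means from 1.22 (*Hex70c*) to 32.6 (*Hex70a*). No marker of glia or muscle matched a symbol or synonym of the annotation. Gene descriptions were not searched, so a marker gene listed under another name would be missed. Of the markers of neurons, hemocytes and brain, some matched none, and those that did match were not analysed here. Their absence therefore says nothing about expression, and the share of neurons in the antennal RNA was not measured. Chemosensory proteins are small soluble proteins, some of which are abundant in antennae. Of their 5 listed genes, *CSP1* and *CSP3* were near the top of the table with base means of 58480 and 48898, and the others ran from 114 to 2303. *Gr10*, a gustatory receptor gene, had a base mean of 60.5, within the range of the amine receptor genes.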

How the data were processed

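RNA of 3 wt and 3 dsx stop/stop antennal pools was sequenced as single-end reads of 150 bp. The authors mapped the reads to the transcriptome of Amel_HAv3.1 with kallisto and calculated differences with DESeq2. Versions and settings of these tools are not given in the sources used here, and the methods also name a transcripts-per-kilobase-million normalization. The deposited table of 9362 genes gives 1 base mean per gene, read here as a mean of normalized counts over the 6 libraries. Decimal commas were read as points. The other 6 columns hold the authors' own comparison of the genotypes (log2 fold change, its standard error, Wald statistic, *P*, adjusted *P* and -log10 values) and were not used, so no test between the genotypes was made.

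A size factor was taken from each base mean under 1 that at least 3 genes share and that is not a sum of smaller such values (93 genes, 6 values, geometric mean 1.0). Having 6 values and a geometric mean near 1 were conditions set for using them. That such a value stands for 1 read in 1 library was inferred from the values. The sum of all base means times the sum of the size factors was 81417883, more than the read numbers in the methods allow. This product assumes equal levels in all libraries, and the cause of the excess was not tested. If a unit of the base mean is not 1 read, the counting intervals do not hold. The variance of a base mean was computed as the base mean times the sum of the inverse size factors, divided by the square of the number of libraries, which is Poisson counting error alone. No total per library was used.

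Positions, spans, symbols and transcript models are those of RefSeq for Amel_HAv3.1, and 9361 of the IDs matched. Apart from a few genes at its head, the table runs in alphabetical order to LOC724262, and genes with later IDs were not analysed here. Sequences and transcript lengths were not used here, so the planned levels per kb were replaced by base means. The text names every gene of the naming rule and every listed gene of the pathway lists, and single genes of the marker lists. *DopR2*, *dsx* and the overlapping genes were named beside it after their values were seen, as were *Akhr* and *Crzr*. The members and lists were chosen with earlier results of these data known. Grouping by second messenger follows the known coupling of these receptors. Alternatives were other sets of genes to rank among, *DopR2* as a further dopamine receptor gene, a log2 scale and a doubled counting error. Python 3.11.15, numpy 2.4.6, pandas 2.3.3 and matplotlib 3.10.9 were used.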

Additional observations from a re-analysis of the deposited data

How the results depend on the processing

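The ranks depend on the genes they are taken among. Among protein-coding genes with base means of 10 or more, the share of genes below was 20.8% for *5-HT2alpha*, 12.3% for *5-HT1*, 9.20% for *Dop1*, 8.94% for *5-ht7*, 7.39% for *5-HT2beta* and 2.15% for *Dop3*. With all listed genes of any kind it was 39.1%, 31.4%, 28.2%, 27.9%, 26.2% and 19.7% in the same order. With protein-coding genes of at least 31025 bp, a set chosen after seeing the data, it was 18.1% for *5-HT1*, 14.1% for *Dop1*, 13.7% for *5-ht7*, 11.0% for *5-HT2beta* and 5.36% for *Dop3*, and for *5-HT2alpha* 26.6%, which was within its counting interval. These changes follow from the set of genes, and each of the 6 stayed below the median in every set. The ratio of the serotonin to the dopamine medians was 1.22 with *DopR2* in place of 1.80 (counting interval 1.51 to 2.09). That interval holds only the counting error of the genes at the middle of each family, not the spread among its genes. Counting *DopR2* was an alternative also chosen after seeing the data, as were the other settings for the order. The number of neighbouring pairs apart was 3 on the log2 scale and 2 with the counting error doubled, when *5-HT1* and *Dop1* were no longer apart. Neither setting takes in the spread between pools.

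No paired analysis was possible because both genotypes and all replicates are joined in 1 mean per gene. Other normalizations, filters, models and sets of libraries could not be run on such a mean. Scaling by the longest, shortest or coding length was not run either, since no transcript lengths were used.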

Other observations

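Other receptor genes that signal through G proteins were looked up after the values were seen. *Crzr*, which encodes the receptor of the neuropeptide corazonin, had a base mean of 2850 normalized counts, above 92.5% of the listed protein-coding genes. *Akhr*, which encodes the receptor of adipokinetic hormone, had a base mean of 17.5, above 10.9% of them. The range of the 6 amine receptor genes, 10.4% to 27.5%, includes *Akhr* but not *Crzr*.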
